A study of Bos taurus with 18 samples.

Results

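WWP2 encodes a HECT-type E3 ubiquitin ligase, one of the candidate genes that the study's fine mapping of gestation length placed on bovine chromosome 18. The CpG positions described here are all those listed in the sperm of 18 adult Holstein bulls inside WWP2 (UMD 3.1, chromosome 18 from 36952718 to 37096916) and in 2000 bp on each side. They came to 3351 distinct positions over the 18 bulls, and single bulls listed from 196 (H01) to 2411 (H08) of them, out of 2858992 to 22048556 positions that a bull lists in the whole genome. WWP2 is 1 of 25 fine-mapped genes, and its start and end were taken from the study's gene list, so no methylation value chose the positions.

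Ubiquitin ligases of the NEDD4 family, to which WWP2 belongs, bind substrate proteins through WW domains and transfer ubiquitin to them through a catalytic HECT domain. A known substrate of WWP2 is the pluripotency factor POU5F1 (OCT4), and an intron of the gene hosts MIR140, a microRNA known from cartilage. In mature sperm most CpGs are methylated, whereas many promoters and CpG islands are unmethylated, and a gene body is usually methylated along nearly all of its length.

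The bulls are grouped as high or low for single traits. For gestation length, sire calving ease, body depth and cow conception rate, the study grouped them by genetic merit (predicted transmitting ability). For sire conception rate the labels give only high or low, and the study does not describe these groups. For gestation length (GL) the high group was H03, H09, L03 and L05, and the low group H02, H05, L01 and L07. For sire calving ease (SCE) the low bulls were H01, H06 and L09, and the high bulls H03, H07 and L02. For body depth (BDE) the low bulls were H05, H09 and L02, and the high bulls H02, L03 and L08. For cow conception rate (CCR) the low bulls were H06, L08 and L09, and the high bulls H08, H09 and L06. For sire conception rate (SCR) the low bulls were L01, L02 and L03, and the high bulls H01, H02 and H03. The letters in the names do not give the group for the other traits, the traits share bulls, and H04 and L04 carry no group. Each bull is 1 whole-genome bisulfite library, so bulls are the replicates.

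A listed position is a cytosine of a CpG covered by at least 10 reads, with the percent of reads that kept the cytosine (the methylation level), and the cytosines of both strands count separately. The coverage itself is listed for 6 bulls, H01 to H03 and L01 to L03, where it lay between 10 and 26 reads in WWP2 and averaged 12.2. Depth is unknown in the remaining 12 bulls. At 10 reads, a level of 50% has an exact (Clopper-Pearson) 95% interval from 18.7% to 81.3%, and a level of 0% an interval up to 30.8%, for counting error only, so a level at 1 position in 1 bull is coarse. On chromosome 18 no pair of bulls had the same values: at positions listed in both, 24.2% to 36.2% of values were identical.

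Few positions were listed in most bulls. Only 1 of the 3351 positions was listed in all 18 bulls, 294 in at least 12 and 367 in 1 bull only, and the median position was listed in 5 bulls. Both cytosines of a CpG gave similar values: in 3520 pairs of both strands read in the same bull, the median absolute difference was 5.23 points, and 85.0% of pairs lay within 10 points.

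WWP2 was densely methylated in every bull, with 3 interruptions near its lower-coordinate end. Of 19585 values, 90.4% were above 80%, 6.44% between 20% and 80%, and 3.13% below 20%. The share above 80% ranged from 86.3% in L06 to 93.1% in L03. In tiles of 2000 bp, 68 of 75 had a mean over the bulls above 80%, 6 lay between 20% and 80%, and 1 was below 20%.

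**Figure D1:**
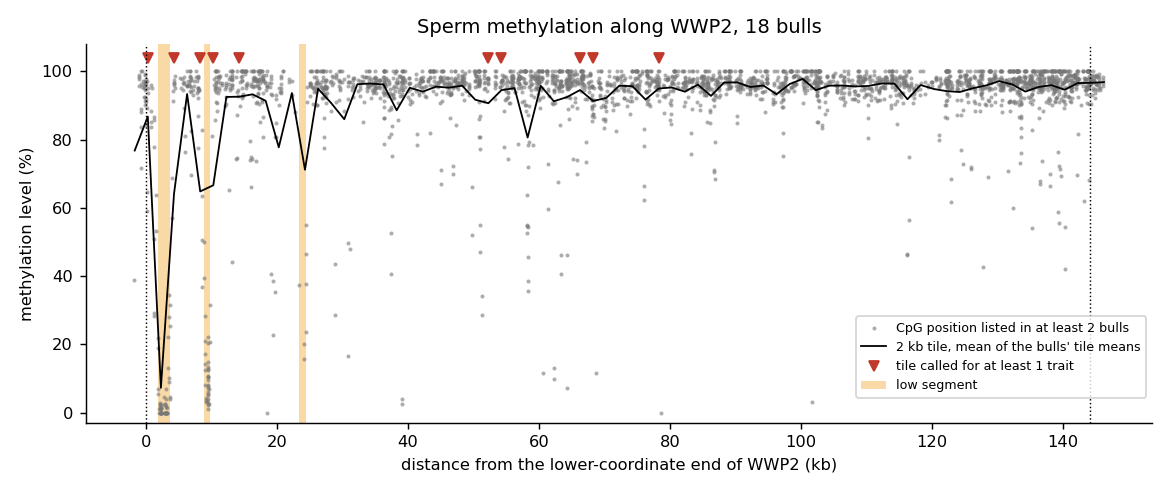
Methylation level (%) along WWP2 by distance (kb) from its lower-coordinate end. Grey points are CpG positions listed in at least 2 bulls (mean over bulls), the black line joins the means of 75 tiles of 2000 bp, orange bands are the 3 low segments, red triangles mark the 10 tiles called for at least 1 trait, and dotted lines are the gene's ends. The 59 tiles not named in the text have means from 85.9% to 97.8%, and levels drop in the orange bands.

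Runs of positions whose running median over 5 positions was below 50% were called low segments, and 3 were found. Segment 1 (chromosome 18 from 36954563 to 36956387, 1825 bp) begins 1.84 kb inside the gene's lower-coordinate end and holds 60 listed positions with a mean of 4.63%, of which 54 were below 20%. Segment 2 (from 36961620 to 36962558, 939 bp) begins 8.90 kb inside the gene and holds 37 positions with a mean of 12.2%, of which 29 were below 20%. Segment 3 (from 36976056 to 36977154) holds only 7 positions, with a mean of 33.7% and an internal gap of 804 bp. The mean outside these segments was between 92.6% and 94.9% in every bull.

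The low level of segment 1 was shared by all bulls. It was between 1.54% (L08) and 15.5% (H09), with a median of 5.35%, in the 17 bulls that list at least 5 positions there. H01 lists 3 positions, with a mean of 25.8%. In segment 2 the 13 bulls with at least 5 positions had means from 3.75% (L08) to 31.8% (H06) with a median of 11.9%. H09 lists 3 positions in segment 2, L03 lists 1, and H01, H02 and L07 list none, so this segment is unread in 3 bulls. Segment 3 was read at 5 positions in H04, H05 and H08 only, with means of 24.2%, 26.9% and 41.8%.

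**Figure D2:**
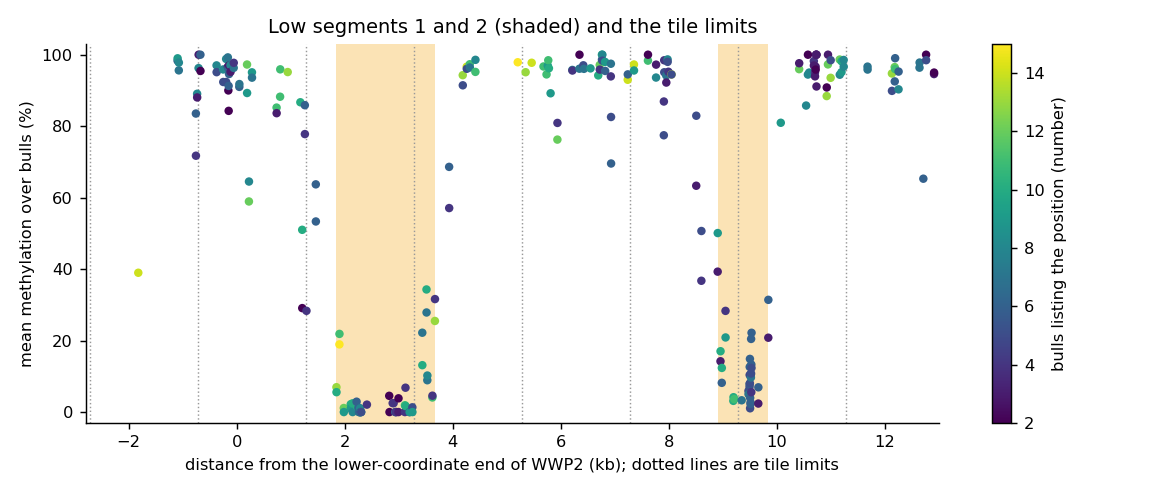
Mean methylation over bulls (%) at positions listed in at least 2 bulls in the first part of WWP2 (distance in kb from the lower-coordinate end). Colour gives the number of bulls listing a position, shading marks segments 1 and 2, and dotted lines are the limits of the 2000 bp tiles. A tile limit falls inside each of both segments.

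The annotation of UMD 3.1 was not used here, so the exons, introns, UTRs and strand at these positions are not given, and the promoter cannot be placed against segment 1. The tissue label was not checked by marker genes for the same reason. By a RefSeq gene table of another build (ARS-UCD2.0), used for names and order only, MIR140 and the pseudogene LOC112442478 lie inside WWP2. NOB1 overlaps the gene's lower-coordinate end there, NQO1 and NFAT5 precede it, and PSMD7 and LOC112442299 follow it. The distance of MIR140 from the low segments is not given.

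WWP2 was more methylated than the genome in all 18 bulls. The mean over the WWP2 tiles of a bull lay between 89.0% (L08) and 92.4% (H06), and the mean over all tiles of the genome between 81.7% (L06) and 86.7% (L03). The difference within bulls was 6.02 ± 1.21 points (SD, n = 18), and it was positive in every bull (two-sided paired sign-flip permutation test, p = 1e-05, the smallest the 100000 resamples can give). Against the 500 kb on each side of the gene the difference was smaller, at 1.49 ± 0.95 points (SD, n = 18), and it was positive in all bulls but H04, where it was -0.71 (permutation p = 4e-05). Over medians of tiles in place of means, differences were 2.21 and 0.51 points, the latter with 4 bulls below 0 (permutation p = 0.00457). These p-values measure how far the bulls agree on a difference, not how WWP2 stands among the genes or tiles of the genome. Of all genome tiles with a value, 79.3% had a mean above 80% and 2.40% a mean below 20%, against 90.7% and 1.33% in WWP2.

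For comparison between bulls, a position-adjusted level was computed, because a plain mean depends on which positions a bull lists. It is the bull's level after a least-squares fit of percent on position and bull over the 2984 positions listed in at least 2 bulls. It was 90.4% in L06, 90.5% in L08, 91.3% in H04 and H01, and 91.5% to 91.6% in H03, L02, H02, L07 and H09. Next were L05, H05, H07, L01 and L04, between 91.8% and 92.0%, then L09, H06, H08 and L03, between 92.3% and 92.5%. The whole range was thus narrower than that of the plain means, 89.3% (L06) to 93.3% (H01). With 1 library per bull, neighbours in this order cannot be compared. L06 and L03, at its ends, also had the lowest and highest mean over all genome tiles (81.7% and 86.7%). Whether the order is particular to WWP2 was not tested.

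Among the 25 fine-mapped genes, read in the same way, the mean level of WWP2 over bulls (91.7%) ranked 5 from the top, and the SD of its 18 levels (0.58 points) ranked 3 from the bottom. WWP2 was fitted on 2984 positions, the most of the 25 genes. PCDHA13 and MYH10, with a smaller SD, had 2654 and 2332 positions, and FBXL6 and SLC52A2, with the largest SD, had 58 and 61. The SD was not adjusted for the number of positions, so its rank is not read as a trait of WWP2. Mean levels of the other 24 genes ran from 22.4% (SCRT1, a transcription factor gene) to 93.4% (LOC107131356), with a median of 79.3%. The 3 genes whose bull levels were most like those of WWP2 were CYSTM1 (Pearson r = 0.75), NRG2, a neuregulin gene (r = 0.66), and CDKL1, a kinase gene (r = 0.61), over 18 bulls that share the library and its depth between genes. The lowest r was -0.43, for DGAT1, which was read in 17 bulls. These correlations are descriptions without a test.

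The position-adjusted level of WWP2 did not separate high from low bulls for any trait, and groups overlapped for all 5. For GL, high bulls had 91.5% (H03), 91.6% (H09), 92.5% (L03) and 91.8% (L05), and low bulls 91.5% (H02), 91.8% (H05), 91.9% (L01) and 91.5% (L07). The means were 91.8% ± 0.48 and 91.7% ± 0.21 (SD, n = 4 each), a difference of 0.14 points with a standard error of 0.26 (two-sided exact permutation test, p = 0.771, smallest possible p 0.0286). Apart from L03, the high bulls lay within the range of the low bulls or just below it.

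Differences for the other traits were -0.39 for SCE (exact permutation p = 0.4), -0.10 for BDE (p = 0.8), -0.24 for CCR (p = 0.8) and -0.55 for SCR (p = 0.2), all two-sided with 3 bulls a group. Adjusted over the 5 traits, every p was 0.8. The sign turned without L08 for BDE (0.40) and without L06 (0.28), H06 or L09 for CCR. With 3 bulls against 3 the smallest possible p is 0.1, so none of these 4 comparisons could pass 0.05. The SCR difference was the largest beside its standard error (0.30 points): the high-SCR bulls had 91.3% (H01), 91.5% (H02) and 91.5% (H03), and the low-SCR bulls 91.9% (L01), 91.5% (L02) and 92.5% (L03). L02 fell inside the range of the high-SCR bulls.

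**Figure D3:**
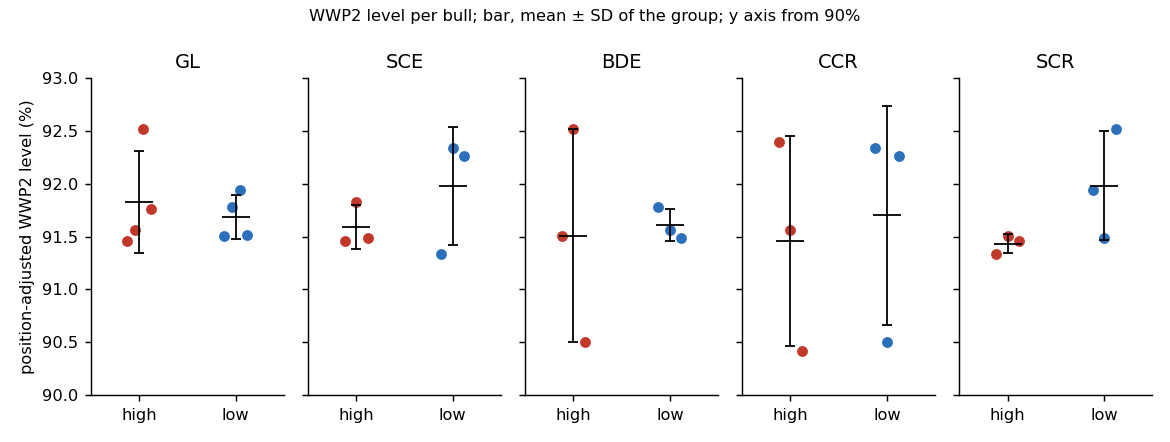
Position-adjusted WWP2 methylation level (%) of each bull (points) in the high and low groups of GL (n = 4 each), SCE, BDE, CCR and SCR (n = 3 each). Horizontal bars are group means and error bars 1 SD; the y axis does not begin at 0. The groups overlap in all 5 traits.

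In segment 1, position-adjusted levels of the bulls with at least 5 positions there differed between groups by 0.05 points for GL, 1.09 for SCE, 0.85 for CCR and 0.23 for SCR (exact permutation p from 0.8 to 1). For BDE the groups did not overlap: the high bulls had 5.19% (H02), 4.55% (L03) and -0.12% (L08, a fitted value from 5 positions), and the low bulls 5.46% (H05), 7.54% (H09) and 8.07% (L02). The difference was -3.81 points, with exact permutation p = 0.1, the smallest possible, and 0.5 after adjustment over the 5 traits. With plain means the BDE groups overlapped, since L03 had 7.04% and H05 6.20%, and the difference was -5.74 (exact permutation p = 0.2). Differences in segments 2 and 3 were not tested, since several bulls of the groups list under 5 positions there.

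Tile by tile, the study's design asks whether methylated reads differ between groups in windows of 2000 bp. A tile was tested where every bull of the comparison lists a position, by a logistic regression with each listed position counted as 10 reads, and called as a differentially methylated region (DMR) with q under 0.01 over all tested tiles of the genome and a difference over 5 points. This difference pools the positions of a group, and the regression and the Cochran-Mantel-Haenszel test used below at matched positions count reads only, so their q values hold no spread between bulls. For GL, 1 of 64 tested WWP2 tiles (1.56%) was called, against 8.75% of 593044 tiles of the genome. For SCE the count was 2 of 51 (3.92%), against 6.18% of the genome, and for BDE 4 of 63 (6.35%), against 7.57%. For CCR it was 6 of 64 (9.38%), against 11.1%, and for SCR 4 of 53 (7.55%), against 6.05%. With the listed read counts in place of 10 reads, the SCR count was 8 of 53 (15.1%, against 8.68% of the genome), and without H01 it was 8 of 70 (11.4%, against 6.76%). The CCR count fell to 2 of 64 without L09 (3.12%, against 11.7%) and to 2 of 59 with tiles shifted by 1000 bp (3.39%, against 11.04%). Leaving out 1 bull gave 0 (H02) to 2 (H09, H05 or L01) for GL and 1 (L09) to 4 (H01 or H06) for SCE, and 2 for BDE without L03. These shares were not tested against each other, and no result on WWP2 is read from them.

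The groups did not overlap in 0 of the 64 tiles for GL (background 3.30%) and 9 of 51 for SCE (17.6%, background 9.26%). For BDE it was 6 of 63 (9.52%, background 10.1%), for CCR 7 of 64 (10.9%, background 9.94%) and for SCR 7 of 53 (13.2%, background 9.13%). Of the 17 called pairs of tile and trait, 4 had groups that did not overlap. This share was not computed for the called tiles of the genome, so it is not read as low or high. With a term for the spread between bulls, an F test called 0 WWP2 tiles for every trait and limma 0. For GL, SCE, BDE, CCR and SCR, the unadjusted p of the F test was under 0.05 at 6 of 64, 5 of 51, 5 of 63, 5 of 64 and 5 of 53 WWP2 tiles, against 6.38%, 5.26%, 5.72%, 5.34% and 5.3% of genome tiles. That of limma was under 0.05 at 1 of 64, 4 of 51, 1 of 63, 1 of 64 and 2 of 53 WWP2 tiles, against 4.91%, 3.81%, 4.41%, 4.11% and 4.01%. These shares, like those of tiles without overlap, were not tested against the genome. Over the whole genome the F test called 0 tiles for GL, SCE, BDE and CCR and 1 for SCR, and limma called 0 for every trait. The lack of such calls in WWP2 is thus not a result about the gene.

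The 17 called pairs fell on 10 tiles. Of them, 8 lay on 3 tiles that hold an end of segment 1 or 2, 5 on 4 tiles that hold 1 of the 10 positions with the largest range between bulls, and 4 on 3 other tiles. The absolute differences were 9.83 to 25.9 points on tiles at a segment's end, and 5.28 to 10.05 points on the others.

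The tile from 36960001 to 36962000, the one the study lists for WWP2, was called for GL, SCE, BDE and CCR. It holds the lower end of segment 2, so it joins highly methylated positions to lowly methylated ones. For GL the high bulls had tile means of 58.1% (H03), 43.6% (H09), 95.5% (L03) and 44.6% (L05), and the low bulls 97.3% (H02), 59.7% (H05), 69.9% (L01) and 93.6% (L07, 3 positions). H03, H09 and L05 lay below all low bulls, and L03 lay above 3 of them, so the groups overlapped.

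The pooled GL difference was -11.7 points (logistic regression, q = 0.0014), and the difference between the means of the bulls was -19.7. Within the bulls with listed coverage, the high bulls had 58.1% and 95.5% and the low bulls 97.3% and 69.9%, and within the others the high bulls had 43.6% and 44.6% and the low bulls 59.7% and 93.6%. The call was lost without H03 (-10.7), L05 (-6.85) or H02 (-7.78), and the difference grew to -18.3 without L03 and -19.2 without H05. Of the listed positions, 21 of 52 in the high group (40.4%) and 13 of 47 in the low group (27.7%) fall inside segment 2. At 22 positions listed in both groups, compared position by position, the difference was -3.95 points (Cochran-Mantel-Haenszel test, q = 0.198), and no position of the tile was listed in all 8 bulls. H02, L03 and L07 list no position of this tile inside segment 2, so the matched comparison there rests on the other bulls. It cannot tell the listed positions from the bulls that list them, and the part of either was not tested.

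For SCE the same tile was lower in the high group, at 58.1% (H03), 62.4% (H07) and 45.2% (L02) in the high group, against 96.7% (H01, 3 positions), 78.4% (H06) and 77.9% (L09), without overlap. The pooled difference was -23.0 points (q = 4.1e-09) and that between means of bulls -29.1, with 44.2% of listed positions inside segment 2 in the high group and 25.8% in the low group. At matched positions it was -9.11 points (q = 0.0201).

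For BDE the tile was higher in the high group by 25.9 points, pooled (q = 1.47e-07) or between means of bulls, at 97.3% (H02), 95.5% (L03) and 33.3% (L08) in the high group, against 59.7% (H05), 43.6% (H09) and 45.2% (L02). L08 lay below all low bulls, and the call was lost without L03 (14.4 points), whereas without L08 the difference was 42.4. Here 15.8% of the positions of the high group and 48.4% of those of the low group lay inside segment 2. At matched positions the sign turned, to -1.87 points (q = 0.634). Inside segment 2, L08 was the only high bull in that comparison, with 3 positions, so it does not tell listed positions from bulls.

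For CCR the pooled difference was -20.02 points and that between means of bulls -14.5, with 58.3% (H08), 43.6% (H09) and 44.2% (L06) in the high group, against 78.4% (H06), 33.3% (L08) and 77.9% (L09). The shares inside segment 2 were 49.0% and 33.3%, the matched difference was -5.43 points (q = 0.156), and the call was lost without H06 (-13.4).

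Segment 2 was defined from the values of these bulls, so a lower tile mean in bulls that list its positions follows from its definition and is given as a description. In the tile from 36960001, the 4 bulls with no listed position inside segment 2, H01, H02, L03 and L07, had tile means from 93.6% to 97.3%. The other 14 bulls, with 18.8% to 60% of their positions inside it, had means from 33.3% to 78.4%. Positions outside the segment in the same tile had means from 81.9% to 100% in each of the 18 bulls.

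The tile from 36962001 to 36964000, which holds the upper end of segment 2, was called higher in the high group for SCE (25.3 points pooled, 8.80 between means of bulls), SCR (21.6 and 24.2) and CCR (9.83 and 15.9). For SCR, high bulls had 100% (H01), 90.3% (H02) and 78.5% (H03), and low bulls 49.9% (L01), 91.4% (L02) and 55.0% (L03, 2 positions), with 8% and 36.1% of their listed positions inside the segment. For SCE, the values were 78.5% (H03), 63.0% (H07) and 91.4% (L02) in the high group, against 100% (H01), 73.0% (H06) and 33.5% (L09), with 17.1% and 50% of positions inside. For CCR, they were 56.7% (H08), 96.0% (H09) and 56.3% (L06) in the high group, against 73.0% (H06), 54.7% (L08) and 33.5% (L09), with 42.4% and 54.3% inside.

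All 3 pooled differences of this tile turned negative at matched positions, to -7.36 (SCE), -2.60 (SCR) and -2.34 (CCR), with q from 0.149 to 0.622. They also turned negative without 1 bull: to -1.97 without L09 for SCE, to -0.52 without L01 for SCR and to -5.52 without L09 for CCR. The CCR call was also lost without H09 (7.68), and the differences were 18.3 without H06 for CCR and 35.3 without L02 for SCR. The 4 bulls with no position inside the segment in this tile, H01, H02, H09 and L07, had tile means from 90% to 100%, and the other 14 from 33.5% to 91.4%. Of the high-SCR bulls, H03 alone lists positions inside the segment (2), and L09 lists 17 of the 20 of the low-SCE bulls. The matched comparisons for SCR and SCE thus rest on few bulls there.

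The tile from 36956001 to 36958000, with the upper end of segment 1, was called for CCR alone, with a pooled difference of -14.3 points and -15.8 between means of bulls. High bulls had 57.9% (H08), 34.9% (H09) and 50.3% (L06), and low bulls 61.5% (H06), 49.4% (L08) and 79.6% (L09), with 50% and 42.3% of positions inside the segment. The matched difference was -5.84 points (q = 0.12), and the call was lost without H09 (-11.1), L06 (-13.55) or L09 (-7.03).

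**Figure D4:**
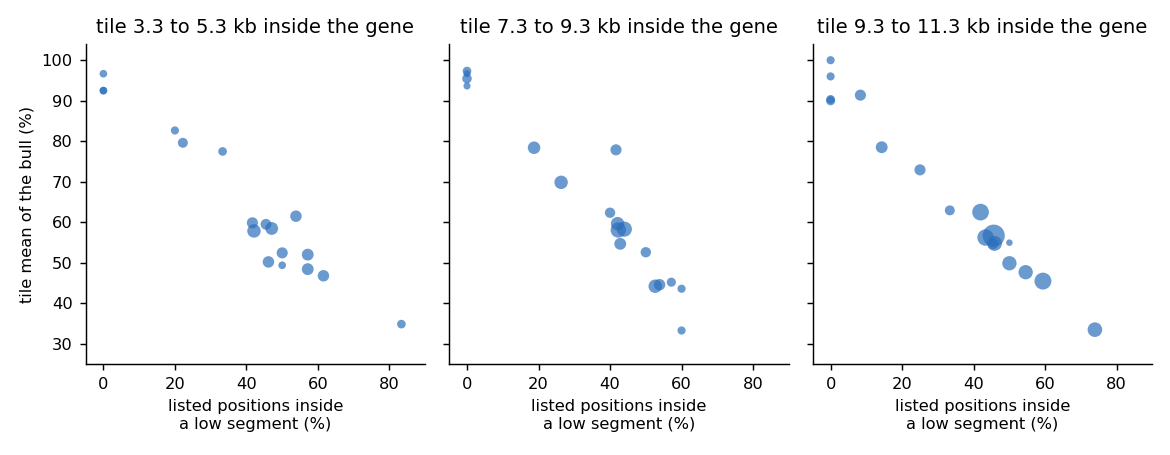
Tile mean of each of the 18 bulls (%, on an axis that does not begin at 0) against the share of the bull's listed positions that lie inside a low segment (%), in the 3 called tiles that hold a segment's end; point area grows with the number of listed positions. Bulls with 0% inside have tile means of at least 90%, and bulls with positions inside have means from 33.3% to 91.4%, not strictly ordered by their share.

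Segment 1 fills most of the tile from 36954001 to 36956000, the only WWP2 tile below 20%. Its tile means ran from 0% (L08, 3 positions) to 25.8% (H01, 3 positions) with a median of 5.21%, and it was called for no trait. The other tiles with intermediate means were those from 36950001 (76.8%), 36972001 (77.7%) and 36976001 (71.2%). The first was tested for GL, BDE, CCR and SCR and the second for SCE, without a call, and the tile from 36976001 was tested for no trait, because H01, H09 and L02 list no position there. The tile from 36972001 had the largest spread, from 0% in H04, which lists 1 position there, to 96.2% in L07. The last base of the gene lies in the tile from 37096001, with a mean of 96.6% and bulls from 92.7% to 100%.

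Single positions with a large range between bulls lay in the tiles of 5 called pairs. The 10 with the largest range, among 294 listed in at least 12 bulls, are at 36950895, 36952943, 36958653, 36966462, 36971828, 36999679, 37004085, 37009485, 37011837 and 37019897. In 8 of them the range was at least 80 points, and these are 2.72% of the 294 positions, close to the 2.496% of 70345 such positions on chromosome 18. Over all 294 the median range was 16.7 points, and 18.2 on the chromosome. The 10 positions were picked for their range, so smaller differences without them can follow from that choice. In tests without them, the other tiles of the genome kept all their positions.

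At 36966462, H02 had 0% and H03 12.5%, L03, L05 and L06 had 46.7% to 58.3%, and the other 9 bulls 90.9% to 100%. H02 had 0 of 14 reads methylated there (exact 95% interval up to 23.2%), and H01, with 10 reads, had 100% (69.2% to 100%). The position was chosen for its range, so the distance between its extreme bulls is a description. Other positions within 200 bp had a median of 100%, and the second cytosine of this CpG was listed in 0 bulls. H02 and H03 are high-SCR bulls, and the tile from 36966001 to 36968000 was called lower in high-SCR bulls (-9.45 points pooled, -9.68 between means of bulls), at 84.7% (H01), 84.5% (H02) and 86.9% (H03) in the high group, against 95.5% (L01), 98.1% (L02) and 91.6% (L03). Without the 10 positions the difference was -3.44 points (q = 0.206), and at matched positions -5.88 (q = 0.253). The call was also lost without H02 (-8.78) or L01 (-8.79).

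At 36971828, H04, H05, L01 and L02 had 0%, L07 had 100% and the other 8 bulls 36.4% to 72.7%. L01 had 0 of 12 reads and L02 0 of 10, with exact 95% intervals up to 26.5% and 30.8%, whereas H03 had 40.9% of 22 reads (exact 95% interval 20.7% to 63.6%), so that the intervals of H03 and these bulls overlap. At 36950895, in the flank before the gene, H04, H05 and L01 had 0%, H01 8.33% and L02 9.09%, while 8 bulls lay between 44.4% and 61.5% and H02 had 100%. The second cytosine was listed in 0 bulls at both positions. In bisulfite reads an unmethylated cytosine and a thymine allele look alike, and genotypes of the bulls were not analysed here, so a sequence variant and a methylation level cannot be told apart at the 10 positions.

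At 37004085 bulls ranged from 14.3% (H09) to 90% (H07) with a median of 27.3%. Its tile, from 37004001 to 37006000, was called for CCR, at 87.3% (H08), 74.2% (H09) and 93.1% (L06) in the high group, against 94.4% (H06), 98.0% (L08) and 99.1% (L09), and for SCR, at 91.7% (H01), 93.5% (H02) and 97.4% (H03) in the high group, against 74.3% (L01), 91.0% (L02) and 89.7% (L03). Neither pair of groups overlapped. The pooled differences of -8.08 and 8.67 points (-12.3 and 9.23 between means of bulls) became -2.60 (q = 0.231) and 1.49 (q = 0.51) without the variable position, which H06, L08, L09, H01 and H03 do not list. At matched positions they were -1.45 and 3.13. The CCR call was lost without H09 (-6.40) or L09 (-6.99), and the SCR call without H03 (6.06) or L01 (4.95) and under the Benjamini-Hochberg adjustment.

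At 36952943, 0.23 kb inside the gene, H02 had 0 of 11 reads methylated, L01 had 100% of 17 reads, and the median of 12 bulls was 60.8%. The tile of the gene's first base, from 36952001 to 36954000, was called for BDE (-10.05 points pooled, -12.3 between means of bulls), at 82.1% (H02), 91.7% (L03) and 59.2% (L08, 4 positions) in the high group, against 92.5% (H05), 86.4% (H09, 2 positions) and 90.9% (L02), with overlap. Without the variable position the difference was -4.83 points (q = 0.171), and at matched positions -8.58 (q = 0.147). The call was also lost without H02 (-10.7), L08 (-5.98) or H05 (-8.73). At 37019897 bulls ranged from 27.8% (H02) to 100%, and its tile, from 37018001, was called for CCR by 5.84 points (5.06 between means of bulls), at 96.3% (H08), 97.2% (H09) and 94.0% (L06) in the high group, against 90.3% (H06), 95% (L08) and 87.0% (L09). Without it the difference was 3.68 points (q = 0.0378), at matched positions 4.70 (q = 0.0502), and the call was lost without H08 (5.16), H06 (6.27) or L09 (4.39) too.

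The other 4 positions lie in tiles that were not called, of which that of 37011837 was not tested for SCE and SCR. At 36958653 H02 had 7.69%, and the other 11 bulls 57.1% to 100%. At 36999679 H04 and L06 had 0% and the median was 76.4%. At 37009485 H04 had 5%, and at 37011837 it had 0%, with medians of 100% at both. H04, which has no group and lists all of the 10 positions, was below 20% at 5 of them. Bulls such as H01 and H09 list few of the 10, so these counts are not compared between bulls.

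Of the 17 called pairs, 4 lay on tiles with neither a segment's end nor a variable position, and 3 of them were also called at matched positions by reads alone. The F test and limma, which called at most 1 genome tile for a trait, called none. At matched positions 0, 0, 2, 0 and 1 WWP2 tiles were called for GL, SCE, BDE, CCR and SCR, against 2.19%, 1.31%, 1.6%, 4.4% and 1.18% of genome tiles. The tile from 37020001 to 37022000 was called higher for BDE by 7.15 points pooled, but by 2.05 between means of bulls, at 94.2% (H02), 92.8% (L03) and 79.2% (L08) in the high group, against 86.9% (H05), 93.1% (H09) and 80.1% (L02). At 22 matched positions the difference was 9.01 points (q = 0.00129). It was also called higher for SCR by 5.28 points (5.08 between means of bulls), at 90% (H01), 94.2% (H02) and 95.1% (H03) in the high group, against 91.2% (L01), 80.1% (L02) and 92.8% (L03), and at 27 matched positions by 5.74 (q = 0.00943). L02, with 80.1% at 17 positions, is a low bull of both traits: without it the pooled differences were 3.93 and 2.40 points and neither was called. L08, with 79.2%, lists 3 positions only. Without H02 (5.72) or L03 (7.08) the BDE call was lost too, and without H02 (5.36) or H03 (4.47) the SCR call. The groups overlapped in both traits.

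The tile from 37006001 to 37008000 was called higher for BDE by 6.49 points (3.86 between means of bulls), at 95.9% (H02), 97.0% (L03) and 87.6% (L08) in the high group, against 87.0% (H05), 90.8% (H09) and 91.1% (L02), and by 8.08 at 20 matched positions (q = 0.0045). L08, which lists 3 positions, lay below 2 of the low bulls, and the call was lost without H02 (6.25), L03 (5.62) or H05 (4.78). The tile from 37030001 to 37032000 was called lower for CCR (-7.33 points pooled, -4.72 between means of bulls), at 85.8% (H08), 96.7% (H09) and 94.4% (L06) in the high group, against 95.6% (H06), 98.1% (L08) and 97.4% (L09). The difference was -1.84 points (q = 0.399) at matched positions and -1.93 without H08.

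**Figure D5:**
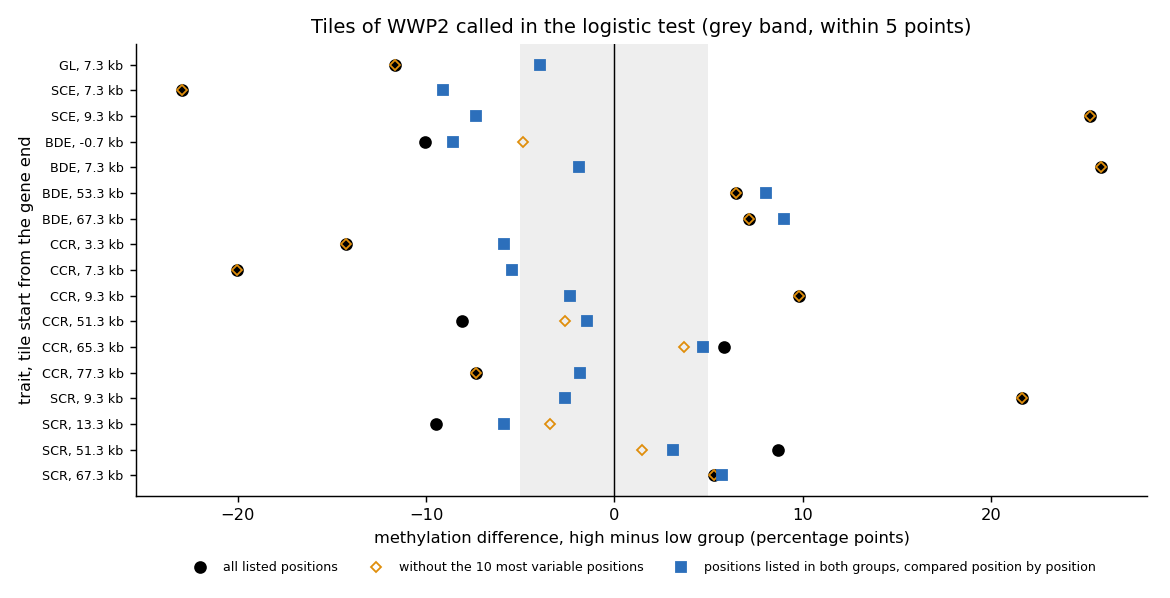
Difference in methylation (percentage points, high minus low group) for the 17 pairs of tile and trait called in WWP2, with the tile's start in kb from the gene's lower-coordinate end. Black circles use all listed positions, orange diamonds leave out the 10 most variable positions, blue squares compare position by position at positions listed in both groups, and the grey band covers differences within 5 points. At matched positions 4 of the 17 differences change sign, and 3 are called.

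The fine-mapped variant assigned to WWP2 lies at 37011047, in the inner part of the gene, and this coordinate is itself a listed cytosine of a CpG. Of the 12 listed positions within 200 bp, 10 had means between 20% and 80%, and the means ran from 35.6% (37011117) to 87.1% (37011132) and 95.5% (37011133). The 12 are both strands of the same CpGs, and 37011118 and 37011133 were listed in 2 bulls only. At 37011046, the first cytosine of this CpG, 10 bulls had from 10% (H02, 20 reads, exact 95% interval 1.23% to 31.7%) to 76.5% (L06), with a median of 51.5%. At 37011047, 7 bulls had 27.3% (H05), 30% (L09), 40% (H04 and L08), 50% (L01), 61.5% (H08) and 70% (L06). The genotypes of the bulls were not analysed here, so an allele and a methylation level cannot be told apart at this CpG either. The variant's tile, from 37010001 with a mean of 80.6%, was tested for GL, BDE and CCR and not called. H01 lists no position in it, so it was not tested for SCE and SCR.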

How the data were processed

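The authors trimmed the reads (Trim Galore 0.4.0, FastQC 0.11.2), mapped them to UMD 3.1 with Bowtie2 and extracted methylation with Bismark 0.14.5. The deposited tables give for each bull the percent of reads that were methylated, by CpG position, with 10 reads as the minimum coverage, and for 6 bulls the authors also deposited the count of reads. Bisulfite reads at a position are not independent molecules where PCR copied them, so intervals cover counting error only.

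All 75 tiles of 2000 bp that touch WWP2 with its flanks were kept whole. Tiles were tested genome-wide by a likelihood ratio test without overdispersion, each position counting as 10 reads, with q from a simplified SLIM estimate. F tests, limma 3.58.1 (R 4.3.3; log2 of methylated to unmethylated reads with 1 added, computed from the deposited percent) and Cochran-Mantel-Haenszel tests at matched positions were alternatives. Fits were made in Python 3.11.15 (NumPy 2.4.6, SciPy 1.17.1) and tested on simulated data. For the tile test, the simulated reads gave bulls of a group and positions of a tile the same level. They thus do not check calls where these differ. Columns left unused because they match no sample: 0. Named tiles were all called ones, those of the study's list, the variant and the gene's ends, those with a mean of at most 80% and the 3 with the largest SD. Positions and genes were named by the rules given with them. Members, lists and tests were chosen with earlier results of these data known.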

Additional observations from a re-analysis of the deposited data

Results flagged for a closer look

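In the high-GL group, the mean of H09 in the tile from 37006001 to 37008000 was 90.8%, whereas the other 3 bulls lay between 97.0% and 98.0%. The gap was 0.867 of the group's range, above Dixon's 95% critical value for 4 samples. This was 1 of 24 tests, all on the high-GL and low-GL groups, over the WWP2 level, segment 1 and the 10 called tiles. The tests share bulls, and chance flags about 1 in 20 of such tests. Groups of 3 bulls were not tested in this way.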

How the results depend on the processing

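Exact permutation p of the difference in WWP2 level ran from 0.1 to 1 over the alternatives, but with 3 bulls a group no p can pass 0.05. The sign of the difference turned for BDE with tile means (0.043), flanks of 10000 bp (0.0052) or positions listed in every bull (0.42), and for CCR with plain means (0.19). With positions listed in every bull of a comparison it was 1.52 for GL, -2.78 for SCE, -0.081 for CCR and -0.28 for SCR; for SCR it was -0.072 with tile means and -2.75 with at least 15 listed reads. Leaving out 1 bull gave -0.092 to 0.26 for GL, where the sign turned without L03, -0.71 to -0.21 for SCE, -0.61 to 0.40 for BDE (L08), -0.84 to 0.28 for CCR (L06, H06 or L09) and -0.80 to -0.28 for SCR. With the file layout as a block, differences were 0.14 (GL), -0.17 (SCE) and -0.32 (BDE); all CCR files lack coverage and all SCR files have it. No paired analysis was possible because the labels number no replicates across groups. Alternatives for segment 1 were chosen after seeing the data: its differences ran, without 1 bull, from -0.47 to 0.92 (GL), -1.57 to 3.75 (SCE), -4.81 to -2.15 (BDE), -1.28 to 3.24 (CCR) and -0.54 to 1.40 (SCR); with plain means they were 1.16, 0.29, -5.74, 2.46 and 0.22.

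Called WWP2 tiles numbered 0 for every trait by the F test and limma, which called at most 1 genome tile for a trait. At matched positions they numbered 0, 0, 2, 0 and 1 for GL, SCE, BDE, CCR and SCR, where 2.19%, 1.31%, 1.6%, 4.4% and 1.18% of genome tiles were called. With 13 reads per position there were 5 of 51 for SCE (genome 10.1%) and 7 of 53 for SCR (genome 9.87%). With a difference over 10 points there were 2 of 63 for BDE (5.53%), 2 of 64 for CCR (7.09%) and 1 of 53 for SCR (4.49%). Tiles shifted by 1000 bp gave 2 of 59 for CCR (11.04%), and the listed read counts 8 of 53 for SCR (8.68%). Without the 10 variable positions, chosen after seeing the data, there were 2 of 52 for SCR (6.05%). These positions were left out of WWP2 alone, so that count and the genome share are not alike. Leaving out 1 bull gave 0 (without H02) to 2 (H09, H05 or L01) for GL, 1 (L09) to 4 (H01 or H06) for SCE, 2 (L03) to 6 for BDE, 2 (L09) to 6 for CCR and 3 to 8 (H01) for SCR, while the genome share lay between 7.84% and 9.12% for GL, 6.17% and 6.80% for SCE, 6.93% and 7.79% for BDE, 8.53% and 16.9% for CCR and 5.90% and 6.76% for SCR. Named tiles turned sign at matched positions in 4 of 17 pairs: -7.36 (SCE), -2.34 (CCR) and -2.60 (SCR) for the tile from 36962001 and -1.87 (BDE) for that from 36960001. Without 1 bull, differences of the tile from 36962001 ran from -1.97 to 33.5 (SCE), -5.52 to 18.3 (CCR) and -0.52 to 35.3 (SCR). A minimum of 15 listed reads left 0 WWP2 tiles to test for SCR. The comparisons with the genome and flanks kept their sign with tile medians and without H01 (5.99 and 1.44 points), alternatives chosen after seeing the data; leaving out the 5 tiles with low segments from WWP2 alone, which can only raise its level, gave 8.62 and 4.09.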
